A study of Rattus norvegicus with 8 samples.

Results

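The 10 genes described here carry phosphate and calcium across the kidney tubule, make or break down active vitamin D, or belong to the hormones that set both: Slc34a1, Slc20a2, Trpv5, Calb1, Cyp24a1, Cyp27b1, Kl, Stc1, Stc2 and Pth1r. They were measured in cortical kidney slices of adult rats of the outbred strain labelled RCCHanTMWIST (Han Wistar), 4 male and 4 female, untreated and fed rat chow freely, and the question was whether their expression differed between the sexes. Total RNA of 1 slice per rat was labelled with Cy3 and hybridized to 1 one-color Agilent rat array per rat. Every probe whose RefSeq accession belongs to 1 of the 10 genes was taken, which gave 13 of the 30367 different probes, or 10 of the 14737 genes that could be named. Slc20a2 had 3 probes, Trpv5 had 2 and the other genes had 1 each. The probe of highest mean signal stands for its gene. All 13 probes were well above background, as the scanner software judges it, on at least 4 of the 8 arrays, and 12 of them on all 8. The exception was the probe of Stc2, which was above background on the 4 female arrays alone.

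The kidney filters phosphate and calcium and takes most of both back. In the proximal tubule, sodium-phosphate cotransporters of the brush border, chiefly those encoded by Slc34a1 and Slc34a3, recover phosphate, and they are withdrawn from the membrane under parathyroid hormone, through its receptor Pth1r, and under the bone hormone FGF23, through FGF receptors with klotho (Kl) as coreceptor. The same cells activate vitamin D with Cyp27b1 and inactivate it with Cyp24a1. Fine control of calcium lies further down, in the distal convoluted and connecting tubules, where calcium enters through the channel Trpv5, is carried by calbindin (Calb1) and is pumped or exchanged out on the blood side.

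Each signal is given on the log2 scale, with the 75th percentile of its array set to 0, and differences as male minus female on that log2 scale, so that negative values are higher in females. The 75th percentile lay between a signal of 5025 and 5944 on the female arrays and between 5685 and 6547 on the male arrays, and 73.8% to 79.1% of the probes of an array were above background. All arrays shared 1 slide and 1 scan, with both sexes in each row. Of the 23425 probes tested, 1889 (8.06%) differed between the sexes at an adjusted p below 0.05 in limma, 42.1% of them higher in males, a share that was 54.5% after quantile normalization. At a log2 fold-change of at least 1 as well, 443 (1.89%) differed. Markers of the cortical nephron were present, with all 10 markers of proximal tubule segments 1 and 2 above background on enough arrays to be tested and none of them called, whereas 4 of 6 adrenal markers were not above background on 4 arrays.

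Of the 10 genes, Stc2 and Slc20a2 differed between the sexes at an adjusted p below 0.05, both higher in females, against 8.06% of all probes tested in either direction, 4.67% higher in females and 3.39% higher in males. Stc2 alone also passed the fold-change threshold, against 1.89% of all probes, 1.09% higher in females and 0.798% in males. At an unadjusted p below 0.05 in limma Kl and Cyp27b1 were added, which made 4 of 10 against 25.6% of all probes. The values of the sexes did not overlap for Stc2 and Slc20a2, as for 18.5% of all probes. These shares are of all probes tested, named or not, whereas each of the 10 genes counts once, at its brightest probe. Stc2 entered the test through its female arrays only, so that its presence in these counts follows in part from that filter. The other 8 genes were not called, with differences from -0.61 (Kl) to 0.67 (Cyp27b1), and for 6 of the 8 the 95% interval of the difference included 0. The median difference of the 10 genes was -0.23, and that of all probes was -0.04.

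**Figure D1:**
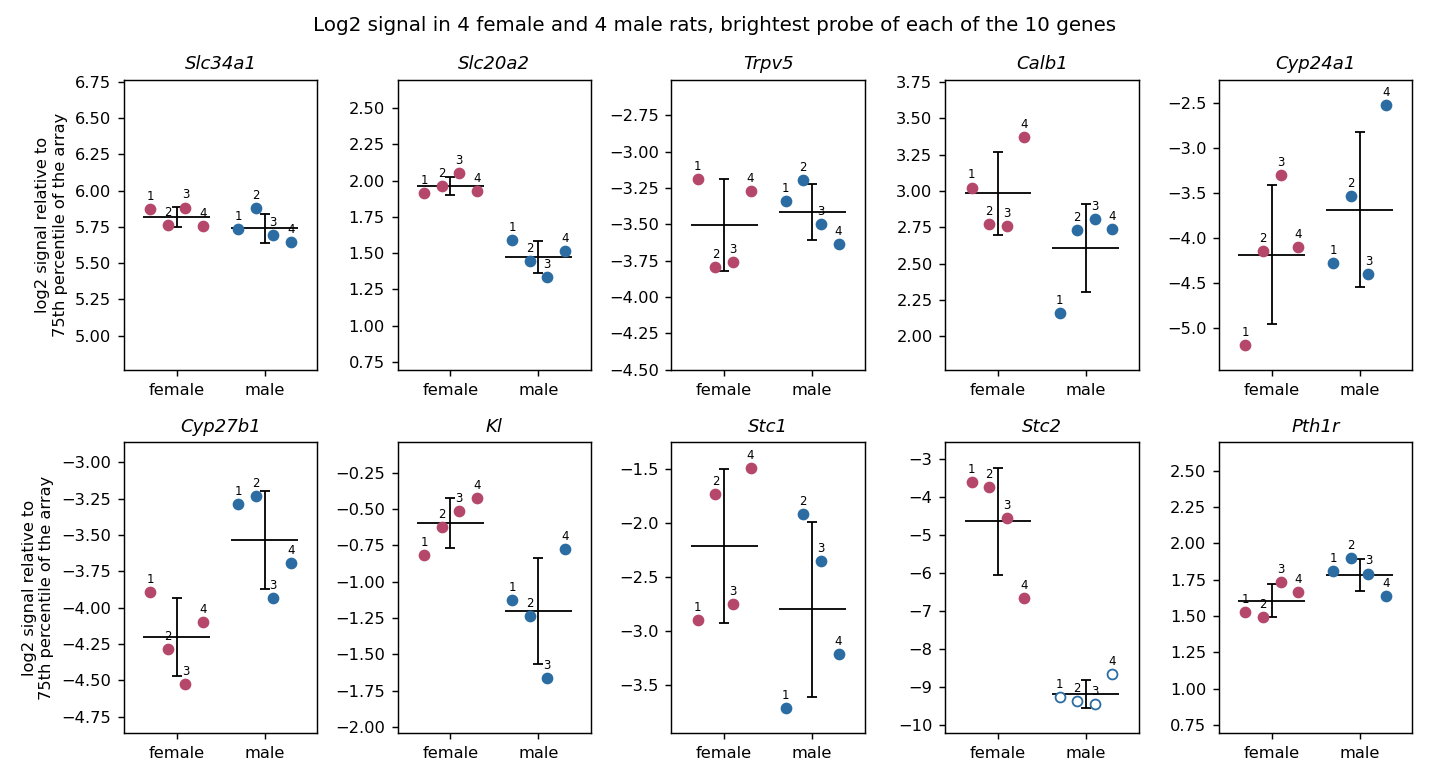
Log2 signal relative to the 75th percentile of the array (vertical axis) in each of the 4 female and 4 male rats, numbered by replicate, for the brightest probe of each of the 10 genes; horizontal lines are means, bars are 1 SD, and open circles are arrays on which the probe was not above background. The vertical ranges differ between panels. The sexes are apart for Slc20a2 and Stc2, and overlap for the other 8 genes.

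The 250 bases before the transcription start are shown for 4 genes, from RefSeq promoter windows of the assembly GRCr8, on the gene's own strand and 5′ to 3′: Stc2, because it held the clearest difference between the sexes, Cyp27b1 and Kl, because their intervals excluded 0 in opposite directions, and Slc34a1, because it was nearly level. Capitals mark TATAAA (the TATA box), CCAAT (the CCAAT box), GGGCGG (the GC box) and GTTAAT (a half-site of HNF1, a transcription factor of the proximal tubule), each searched on both strands.
Stc2 (chr10:16755258-16755507, plus strand): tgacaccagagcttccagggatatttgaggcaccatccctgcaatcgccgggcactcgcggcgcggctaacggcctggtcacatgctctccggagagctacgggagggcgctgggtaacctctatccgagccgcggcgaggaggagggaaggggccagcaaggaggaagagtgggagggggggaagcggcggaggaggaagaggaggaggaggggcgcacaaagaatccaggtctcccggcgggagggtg
Cyp27b1 (chr7:64756376-64756625, plus strand): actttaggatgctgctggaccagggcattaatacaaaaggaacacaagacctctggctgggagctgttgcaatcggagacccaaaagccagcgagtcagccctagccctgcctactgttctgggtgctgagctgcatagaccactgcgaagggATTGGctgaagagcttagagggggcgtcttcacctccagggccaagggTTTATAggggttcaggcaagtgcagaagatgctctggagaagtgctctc
Kl (chr12:5325753-5326002, plus strand): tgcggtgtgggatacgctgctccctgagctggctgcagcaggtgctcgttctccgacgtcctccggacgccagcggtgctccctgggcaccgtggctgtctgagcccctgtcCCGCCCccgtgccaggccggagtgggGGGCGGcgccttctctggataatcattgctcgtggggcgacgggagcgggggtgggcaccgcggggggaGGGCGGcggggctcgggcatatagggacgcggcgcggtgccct
Slc34a1 (chr17:9238984-9239233, minus strand): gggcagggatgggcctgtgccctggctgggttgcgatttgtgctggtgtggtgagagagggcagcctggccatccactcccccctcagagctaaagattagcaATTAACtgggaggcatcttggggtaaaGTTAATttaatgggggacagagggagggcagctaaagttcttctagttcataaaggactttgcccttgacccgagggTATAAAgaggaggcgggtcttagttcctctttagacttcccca
The windows of 6 of the 10 genes were found, those above with Trpv5 and Pth1r.

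Among these windows, that of Slc34a1 held a TATA box beginning 43 bases before the start and 2 HNF1 half-sites, at 147 and 120 bases before it. The Cyp27b1 window held a TATA box at 49 and a CCAAT box at 97 bases, and the Kl window, with 73.2% G and C, held 3 GC boxes at 138, 112 and 43 bases. The Stc2 window, with 66.4% G and C, held none of these motifs. Of 33469 rat promoter windows of the same length, 12.9% held the TATA box, 34.0% the CCAAT box, 30.5% the GC box and 6.45% the HNF1 half-site. A nuclear receptor half-site (AGGTCA, in 14.1% of all windows), the palindrome of estrogen receptors (0.0239%), a consensus androgen response element (0.00299%) and a general STAT site (TTCNNNGAA, 7.67%, which also takes in the BCL6 sites TTCCTAGAA and TTCCTCGAA) were in none of the 6 windows, which says only that these letters are not in these 250 bases.

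Stc2 encodes stanniocalcin-2, a secreted glycoprotein related to the calcium-lowering hormone of fish. In females the log2 signal of its only probe, A_44_P122252, was -3.59, -3.74, -4.54 and -6.66 in replicates 1 to 4. In males it was -9.29, -9.38, -9.45 and -8.66, on none of which the probe was above background. Every female was thus above every male, but the females themselves differed, with replicate 4 well below the other 3. Before scaling, the 2 spots of the probe read 513 and 427 in female 1, 396 and 359 in female 2, 268 and 213 in female 3, and 58.4 and 59.5 in female 4. In males the 8 spots read between 5.30 and 19.3, 1 of them, in male 4, above background. The lowest signal that was above background lay between 16.6 and 23.9 on an array. Against that floor, the mean of Stc2 in females was at least 13.4-fold higher, and at least 21.4-fold higher without female 4. These bounds compare mean log2 signals and carry no interval for the spread between rats. The fitted difference, which below the floor is no measured fold, was -4.56 (SE 0.622, adjusted p = 0.00483, limma, n = 4 and 4). It was -3.37 and -5.75 within the rows of the slide. The gene passed the adjusted p in all 19 alternative analyses that tested it, with fitted differences from -5.24 to -2.65, the smallest after normexp background correction. These reuse the same arrays, and Stc2 entered the main fit through its female arrays only. The alternative that needs all 8 arrays above background could not test it.

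Several marker lists were looked at. Of these, the sums for proximal tubule segment 3 and for the adrenal gland followed the order of Stc2 among the 4 females, though not every single marker did. The sum for proximal tubule segments 1 and 2 did not, and was lowest in female 1 (143.7). The summed level of the 7 markers measured for proximal tubule segment 3 was 145.6, 140.7, 137.9 and 110.7 times the 75th percentile in females 1 to 4, the same order as Stc2, against 105.1 to 117.6 in males. Of these 7 markers Slc22a13, an organic anion transporter, was called (-3.45, adjusted p = 0.000208, limma). Its log2 signals of -1.57, -2.52, -2.05 and -1.75 in females 1 to 4 were not in the order of Stc2. Slc7a13, an amino acid transporter of that segment, had log2 signals of 5.38, 5.09, 4.76 and 4.20 in females 1 to 4 and of 3.60 to 4.19 in males, and was not called (adjusted p = 0.0639). It alone of the 7 followed the order of Stc2, and its mean signal of 132940 gave it much weight in the sum. The other 5 were not called either, with Slc5a1 at -0.42, Slc3a1 at -0.27, Acy3 at -0.02, Aqp1 at 0.16 and Slc7a9 at 0.23, the last without overlap between the sexes and higher in males. The sum of the 2 adrenal markers above background, 0.103 to 0.182 in females and 0.0884 to 0.124 in males, was also lowest in female 4 and highest in female 1, with Cyp11b1, Star and Mc2r above background on at most 1 array and Cyp11b2 on 2 female arrays and no male array. Cyp11b2 read -7.21, -7.91, -7.83 and -8.36 in females 1 to 4 and -9.12 to -7.99 in males. Of the 2 adrenal markers in the sum, Cyp11b3 was nearly level among the females (-5.99 to -5.93), so that Cyp21a1 set the order. The part of either in the level of Stc2 was not tested, and in a slice of tissue fewer cells of a type cannot be told apart from less RNA per cell.

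Stc1 encodes the other stanniocalcin, which in the kidney is made mainly in the distal nephron. Its log2 signals were -2.90, -1.73, -2.75 and -1.49 in females 1 to 4 and -3.71, -1.92, -2.35 and -3.21 in males 1 to 4. Males 1 and 4 were below every female and females 2 and 4 above every male, with the other 4 rats in the range that both sexes shared. The difference was -0.59 with an interval from -1.64 to 0.47 (SE 0.462, adjusted p = 0.475, limma). The spread between rats of a sex, 1.41 in females and 1.79 in males from lowest to highest, was what marked this gene: its residual SD of 0.764 was larger than that of 98.1% of the probes tested. The summed level of the 5 collecting duct markers was 39.57 and 40.08 in females 1 and 3, the low females in Stc1, and 53.25 and 53.16 in females 2 and 4. In males 1 to 4 it was 32.51, 45.16, 37.58 and 40.67, lowest and highest in the same rats as Stc1 but with males 3 and 4 in the opposite order. Aqp2 makes up most of this sum, with a mean signal of 194142 against 46997 for Aqp3 and at most 3456 for the others. Among females, Aqp4, Avpr2 and Scnn1a were lowest in female 2 (-0.82, -0.94 and -0.85), unlike Stc1. One of these 5 markers, Aqp4, was called (-1.19, adjusted p = 0.0235, limma), while Aqp2 (-0.37), Avpr2 (-0.32), Scnn1a (-0.17) and Aqp3 (0.31) were not, and all 5 were above background on all 8 arrays. Whether the share of collecting duct in the slice bears on Stc1 was not tested.

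Kl encodes klotho, the coreceptor through which FGF23 acts on the tubule. Its log2 signals were -0.82, -0.62, -0.51 and -0.42 in females and -1.13, -1.24, -1.66 and -0.77 in males. Only male 4 reached into the female range, just above female 1. The difference of -0.61, 1.52-fold higher in females, had an interval from -1.02 to -0.19 that excluded 0 but did not pass after adjustment (SE 0.18, adjusted p = 0.0781, limma; two-sided exact permutation p = 0.0571). Without male 4 it was -0.75 with an adjusted p of 0.0389, and with the slide row as a block the adjusted p was 0.0382, the 2 of 20 alternative analyses in which Kl passed. Over all 20 the difference ran from -0.75 to -0.45, and the adjusted p reached 0.158. Within the 2 rows of the slide it was -0.48 and -0.73.

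Pth1r encodes the receptor for parathyroid hormone on the tubule cells. Its log2 signals, 1.53, 1.49, 1.73 and 1.67 in females and 1.81, 1.90, 1.79 and 1.64 in males, lay close together within each sex. Male 4 was inside the female range and the other 3 males were above it. The difference was 0.18 with an interval from -0.02 to 0.38 (SE 0.0863, adjusted p = 0.233, limma), so that a change of more than 1.30-fold lay outside the interval.

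**Figure D2:**
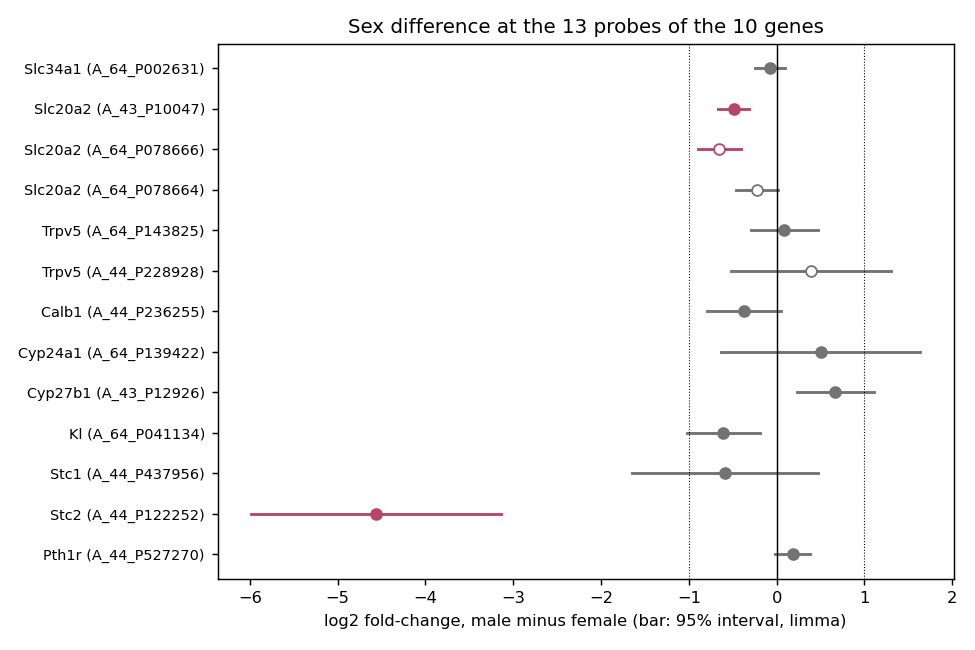
Difference between the sexes (horizontal axis, log2 fold-change, male minus female) at each of the 13 probes, with 95% intervals from limma as bars; filled circles are the brightest probe of a gene, open circles its other probes, red marks an adjusted p below 0.05 with higher signal in females, and dotted lines stand at -1 and 1. Stc2 lies at -4.56, a fitted value with the males below background, and the other 12 probes lie between -0.65 and 0.67.

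Slc34a1 encodes the main phosphate cotransporter of the proximal tubule brush border. Its log2 signals were 5.87, 5.76, 5.88 and 5.76 in females and 5.73, 5.88, 5.70 and 5.65 in males. The sexes overlapped, and neither sex spread by more than 0.23. The difference was -0.08 with an interval from -0.25 to 0.09 (SE 0.0746, adjusted p = 0.55, limma), and it was 0.02 after quantile normalization.

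Slc20a2 encodes a phosphate transporter of a second family, found in most cells and also in the proximal tubule. At its brightest probe, A_43_P10047, the log2 signals were 1.91, 1.96, 2.05 and 1.93 in females and 1.59, 1.44, 1.34 and 1.52 in males. All females were above all males, and the gap between the sexes exceeded the spread within either. The gene was 1.41-fold higher in females, with a mean of 1.96 ± 0.06 (SD, n = 4) against 1.47 ± 0.11 (SD, n = 4) in males and a difference of -0.49 (SE 0.0756, adjusted p = 0.00789, limma; two-sided exact permutation p = 0.0286, the smallest that 4 against 4 can give). A dimmer probe, A_64_P078666, which had 1 spot per array, also separated the sexes, with -3.22, -3.07, -3.21 and -3.31 in females, -3.95, -3.60, -4.05 and -3.82 in males and a difference of -0.65 (adjusted p = 0.0102, limma). The third probe, A_64_P078664, was not called, with signals of -4.96 to -4.77 in females, -5.30 to -4.82 in males and a difference of -0.22 (SE 0.104, adjusted p = 0.229, limma). The interval at that probe ran from -0.46 to 0.02. At the brightest probe the difference was -0.43 and -0.55 within the rows of the slide.

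The pattern of Slc20a2 over the 8 arrays was compared with those of other genes by the root mean square difference of log2 signals centered on each gene's own mean, among 11140 genes above background on all arrays. The 3 most like it were Cfap300 (0.0697), Nudt16 (0.0703) and Rad9b (0.0728), with sex differences of -0.47, -0.51 and -0.49. The centered signals of Slc20a2 had a root mean square of 0.257, set mostly by its difference between the sexes. Genes chosen as most like it therefore have a like sex difference by selection. This measure describes likeness in these 8 rats.

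The other 9 genes of phosphate transport were all tested, and 1 was called. Slc34a3, the second sodium-phosphate cotransporter of the brush border, had log2 signals of 2.93 to 3.03 in females and 3.16 to 3.40 in males. It was 1.22-fold higher in males (0.29, SE 0.0729, adjusted p = 0.0481, limma), with no overlap between the sexes, but the adjusted p was 0.0605 and 0.0708 with the slide row or column pair as a block, and 0.083 to 0.113 when any 1 rat other than male 3 was left out. The remaining 8 were not called: the transporters Slc20a1 (-0.01) and Slc34a2 (-0.34), the exporter Xpr1 (0.44), the scaffold proteins Nherf1 (-0.23), Nherf2 (-0.24) and Pdzk1 (0.04), their membrane linker Ezr (-0.24) and the glucose-6-phosphate transporter Slc37a4 (0.23). For Xpr1 (adjusted p = 0.135, limma), males 1, 2 and 4 read -3.14 to -2.89. Male 3 read -3.70, inside the female range of -3.73 to -3.58. Without male 3 the difference was 0.60 (adjusted p = 0.0117, limma), the only 1 of 20 alternative analyses in which Xpr1 passed. Over all 20 its adjusted p reached 0.259.

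Trpv5 encodes the calcium channel through which the distal tubule takes up calcium. Its brighter probe, A_64_P143825, read -3.19, -3.79, -3.76 and -3.27 in females and -3.34, -3.19, -3.50 and -3.63 in males on the log2 scale. The sexes overlapped throughout (difference 0.09, interval -0.29 to 0.47, SE 0.167, adjusted p = 0.785, limma). The second probe, A_44_P228928, read -4.89, -6.34, -6.26 and -6.21 in females and -5.16, -5.08, -6.43 and -5.49 in males. Here too the sexes overlapped (0.39, SE 0.397, adjusted p = 0.59). At both probes female 1 was the highest female and female 4 the next. At the first probe female 4 was close to female 1, and at the second it was close to females 2 and 3.

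Calb1 encodes calbindin, which binds calcium inside the cells that Trpv5 lets it into. Its log2 signals were 3.02, 2.77, 2.76 and 3.37 in females and 2.16, 2.73, 2.80 and 2.74 in males. Male 3 lay within the female range, males 2 and 4 just below it, and male 1 below every other rat. The difference was -0.37 (interval -0.80 to 0.05, SE 0.185, adjusted p = 0.246, limma), and -0.23 without male 1.

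Among the other genes of calcium and magnesium transport, 12 could be tested and 3 were called, 1 higher in males and 2 in females. S100g, a smaller calbindin that also carries calcium across epithelia, had log2 signals of -0.71, -0.86, -0.62 and -0.70 in females and 0.20, -0.05, -0.06 and 0.14 in males. It was 1.72-fold higher in males (0.78, SE 0.0885, adjusted p = 0.00219, limma) and kept its adjusted p below 0.05 in all 20 alternative analyses. Both calbindins were thus measured in the same slices, with S100g called higher in males and Calb1 not called, though their difference from each other was not tested.

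The 2 genes called higher in females encode claudins of the thick ascending limb, the proteins of the tight junction that set how much calcium and magnesium passes between the cells. Cldn14, which lowers that passage, read -5.24, -4.74, -5.34 and -4.65 in females and -5.88, -7.41, -6.86 and -6.13 in males, 2.98-fold higher in females (-1.58, SE 0.335, adjusted p = 0.0275, limma). The adjusted p of Cldn14 was 0.052, 0.0767 and 0.0608 without female 1, 2 or 4, and 0.072 without male 3. Cldn16, which forms part of the pore, read -2.12 to -1.97 in females and -2.97 to -2.40 in males (-0.62, SE 0.134, adjusted p = 0.0287, limma). The adjusted p of Cldn16 was 0.0516 to 0.0774 when any 1 female, male 2 or male 3 was left out. The calcium-sensing receptor Casr, which acts in the same segment, was not called (-0.37, adjusted p = 0.0642), nor were Slc8a1 (-0.21) and Atp2b1 (0.07), which move calcium out of the cell, nor the channel Trpv6 (0.02).

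The summed markers of the thick ascending limb and of the connecting tubule did not overlap between the sexes, but the sums were not tested. Those of glomerular podocytes did not overlap either, at 15.07 to 16.1 in females and 12.87 to 13.47 in males. Single probes did not overlap in 18.5% of cases. The brightest markers weigh most in a sum, here Umod, Klk1 and Podxl. Log2 signals centered on each marker's mean were also averaged. The thick ascending limb then overlapped (0.002 to 0.168 in females, -0.123 to 0.0299 in males). Podocytes overlapped too (-0.0274 to 0.163 and -0.117 to -0.0204). The connecting tubule was barely apart (-0.0234 to 0.271 and -0.164 to -0.0238). The summed level of 5 thick ascending limb markers was 79.34 to 89.75 in females and 68.4 to 73.26 in males, with Egf called (-0.38, adjusted p = 0.0301, limma) and Umod (-0.26), Kcnj1 (-0.34), Cldn10 (0.02) and Ptger3 (0.40) not called. The sum of 5 connecting tubule markers was 77.14 to 82.93 in females and 61.99 to 71.78 in males, with the means of all 5 lower in males and none called. For the distal convoluted tubule the 4 markers tested summed to 17.65 to 19.79 in females and 18.31 to 20.69 in males, while its markers Pvalb and Kcnj10 were not above background on 4 arrays. The markers of the thick ascending limb and connecting tubule were above background on all 8 arrays. The part of these levels in the claudins and in Calb1 was not tested.

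Cyp27b1 encodes the enzyme that makes active vitamin D. Its log2 signals were -3.89, -4.29, -4.53 and -4.10 in females and -3.28, -3.23, -3.93 and -3.70 in males. Male 3 lay within the female range, just below female 1, and the other 3 males were above all females. It was 1.59-fold higher in males, a difference of 0.67 with an interval from 0.23 to 1.10, but did not pass after adjustment (SE 0.191, unadjusted p = 0.00771, adjusted p = 0.071, limma; two-sided exact permutation p = 0.0571). The adjusted p was 0.0495 after quantile normalization, 0.012 with the slide column pair as a block and 0.157 without female 2. Within the rows of the slide the difference was 0.82 and 0.51.

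Cyp24a1 encodes the enzyme that breaks active vitamin D down, and its own gene is a classical target of the vitamin D receptor. Its log2 signals were -5.19, -4.15, -3.30 and -4.10 in females and -4.28, -3.53, -4.40 and -2.52 in males. The sexes overlapped, while rats of 1 sex differed by up to 1.89 in females and 1.88 in males. The residual SD of 0.82 was larger than that of 98.4% of the probes tested. The difference of 0.50 had an interval from -0.63 to 1.63 (SE 0.495, adjusted p = 0.577, limma) and was 0.11 without male 4 and 0.17 without female 1, so that neither a change nor its absence could be read at this spread.

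Of the other genes of vitamin D metabolism and signalling, 14 were tested and 3 were called, 2 higher in males and 1 in females. Gc encodes the vitamin D binding protein of plasma, made chiefly in the liver. It read -6.08, -5.65, -5.87 and -6.85 in females and -1.77, -3.39, -2.12 and -1.63 in males, above background on all arrays. It was 14.8-fold higher in males (3.89, SE 0.41, adjusted p = 0.00175, limma), the sexes far apart and male 2 the lowest male, and passed in all 20 alternative analyses.

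The other 2 called genes encode partners in the uptake of filtered vitamin D binding protein by the proximal tubule. Cubn, the receptor cubilin, read 3.72, 3.60, 3.62 and 3.46 in females and 3.08, 2.92, 3.09 and 2.96 in males (-0.59, higher in females, SE 0.0785, adjusted p = 0.00452, limma). Dab2, an adaptor that links these receptors to the endocytic coat, read 2.73, 2.68, 2.75 and 2.64 in females and 3.19, 3.16, 3.13 and 3.02 in males, 1.34-fold higher in males (0.43, SE 0.0665, adjusted p = 0.00835, limma). Both were without overlap between the sexes and passed in all 20 alternative analyses. Lrp2, the large receptor megalin that works with cubilin, was not called (-0.01, interval -0.26 to 0.25, adjusted p = 0.974), and Amn, which anchors cubilin, was at 0.25 (adjusted p = 0.0585).

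The vitamin D receptor Vdr read -3.32 to -3.03 in females and -3.66 to -3.38 in males and was not called (-0.33, SE 0.0967, adjusted p = 0.0772, limma), although the ranges did not overlap. Its partner Rxra was at 0.25 (adjusted p = 0.244), and the enzymes of the earlier step of activation, Cyp2r1 and Cyp27a1, were at -0.24 and -0.17, none of them called.

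**Figure D3:**
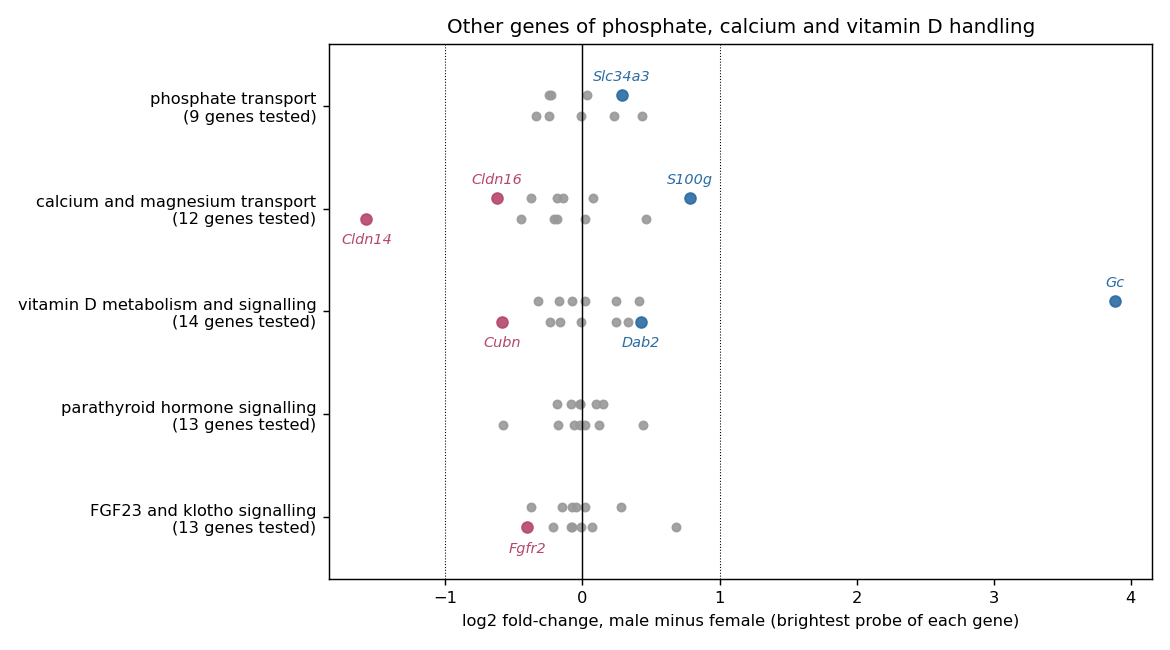
Difference between the sexes (horizontal axis, log2 fold-change, male minus female) for the brightest probe of each of 61 other genes of phosphate, calcium and vitamin D handling, in 5 lists; blue and red mark an adjusted p below 0.05 with higher signal in males and in females, gray marks genes not called, and dotted lines stand at -1 and 1. The 8 called genes are named, with Gc at 3.89 and Cldn14 at -1.58 past the fold-change threshold, and none lies in the list of parathyroid hormone signalling.

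In parathyroid hormone signalling, 13 genes were tested beside Pth1r, and limma called none of them at the adjusted p, with 1, Adcy6, at an unadjusted p below 0.05 (-0.58, adjusted p = 0.17). Gnas, the G protein subunit through which the receptor raises cyclic AMP, was at -0.06, and the differences of the list ran from -0.58 to 0.44 (Adcy3). In FGF23 and klotho signalling, 13 genes were tested and 1 was called. Fgfr2, a receptor for fibroblast growth factors, was 1.32-fold higher in females (-0.40, SE 0.0841, adjusted p = 0.0257, limma). Its adjusted p was 0.0517 to 0.0718 without female 1, female 3 or any 1 male, and its mean over all probes was at -0.23 (adjusted p = 0.0604). Fgfr1 was at 0.02 and the kinase Sgk1 at 0.68 (adjusted p = 0.299). The Fgf23 probe was above background on 3 male arrays and no female array, too few to be tested. In Sgk1, females 1 and 3 read -0.03 and 0.13, and females 2 and 4 read 1.71 and 1.32. These pairs of females were also low and high in Stc1 and in the summed collecting duct markers, though not in Aqp4, Avpr2 or Scnn1a. The males did not share this likeness. Sgk1 read 1.35, 1.32, 1.62 and 1.56 in males 1 to 4, lowest in male 2, the highest male in Stc1 and in that sum. Whether these levels vary together was not tested.

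Over the 5 lists, 70 of 80 genes had a named probe, 61 were tested and 8 were called, 4 higher in males and 4 in females, or 13.1% against 8.06% of all probes. The median difference was -0.05, against -0.04 for all probes. At both thresholds Gc and Cldn14 remained, or 3.28% against 1.89%. The lists count each gene once, at its brightest probe, whereas all probes include unnamed and dimmer ones. The shares are thus of unlike sets, and their difference was not tested. The 8 calls became 10 after quantile normalization or with the deposited log2 values, 12 with an intensity trend and robust prior, 5 without a filter on dim probes, 4 without female 1, and 5 without female 2, female 3 or male 2.

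The 10 genes differed widely in how much rats of 1 sex varied. The residual SD was 0.0854 for Slc34a1, 0.0876 for Slc20a2 and 0.112 for Pth1r, below that of most probes tested. It was 0.764 for Stc1, 0.82 for Cyp24a1 and 1.03 for Stc2, each above that of at least 98.1% of them. No rat lay on the same side of the mean of its sex at all 13 probes, with male 2 above the male mean at 10 of them and male 3 below it at 10. Female 1 was 1.04 above the female mean for Stc2 and 1.00 below it for Cyp24a1, and male 1 was 0.91 below the male mean for Stc1 and 0.25 above it for Cyp27b1.

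**Figure D4:**
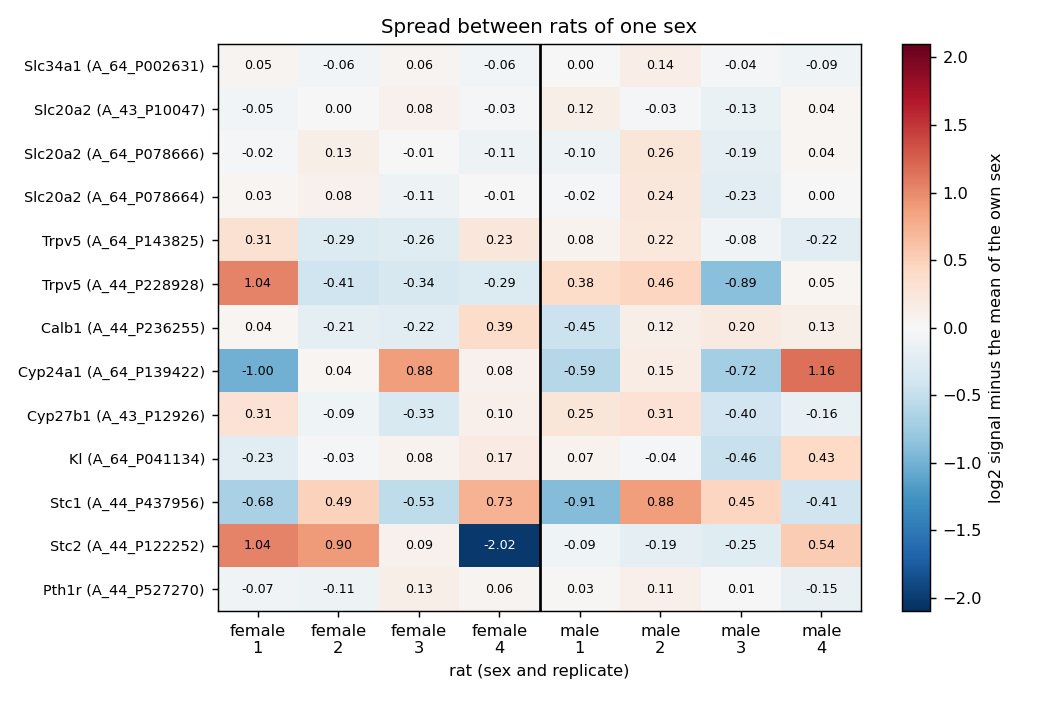
Log2 signal of each rat minus the mean of its own sex (color and printed value) at the 13 probes (rows) in the 8 rats (columns). Slc34a1, Slc20a2 and Pth1r stay within 0.26 of the mean, while Cyp24a1, Stc1, Stc2 and the second Trpv5 probe move by 0.91 or more in at least 1 rat.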

How the data were processed

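Gene expression in slices of kidney cortex was measured on 8 arrays, 4 per sex by their labels. For every array the authors deposited a signal intensity for 62976 spots (Feature Extraction 10.7.3.1), background-subtracted and not normalized between arrays, and a table of log2 values that hold the same distribution on every array. The submitters' processing notes name limma 3.8.2.

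Outlier spots were left out, log2 signals were set relative to the 75th percentile of the array, and spots of a probe were averaged. Probes above background on at least 4 arrays were fitted with limma 3.58.1 (R 4.3.3) as male minus female, with Benjamini-Hochberg adjustment over 23425 probes. The exact permutation test used all 70 assignments of the rats. The fit was tested on simulated data. With 4 rats per sex, the number of arrays limits the precision. The labels number the replicates as biological replicates, and each is 1 rat.

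Genes were named through RefSeq accessions (17514 probes) and not through the array's own build, rn4, so no probe coordinates are given. The 10 genes, the lists, the alternatives and the rule for named genes (the 10 genes, a set of further pathway genes whatever their values, every listed gene with an adjusted p below 0.05, and the 3 genes most like a called one) were chosen with earlier results of these data known. Stc2 was already known to differ. Trpm6 and Klb were among the named genes and are not analysed here. Alternatives were quantile normalization, the deposited log2 values, 2 other filters, keeping outlier spots, normexp (offset 16), weights per array, a robust prior with intensity trend, the replicate number, slide row or column pair as a block, leaving out each rat, and the mean over a gene's probes. Figures were drawn with matplotlib 3.10.9.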

Additional observations from a re-analysis of the deposited data

Results flagged for a closer look

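Single rats far from the other 3 of their sex were found in 4 of 76 groups of 4 rats examined, where chance gives about 1 in 20, or 3.8. At the second Trpv5 probe, A_44_P228928, female 1 read -4.89, with the other females between -6.34 and -6.21. Calb1 read 2.16 in male 1, with the other males between 2.73 and 2.80. Slc8a1, the sodium-calcium exchanger, read -4.40 in the same male 1, with the others between -3.84 and -3.78, and without male 1 its difference between the sexes was -0.06. In male 1 the summed distal convoluted tubule markers were the lowest of the males (18.31) and the connecting tubule markers the highest (71.78). Vdr read -3.66 in male 3, with the other males between -3.40 and -3.38, and without male 3 its difference was -0.26 (adjusted p = 0.142, limma). Values are log2 signals relative to the 75th percentile of the array.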

How the results depend on the processing

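Of the 10 genes, 2 were called, and this count stayed between 1 and 3 under all alternatives. It was 1, and 0 at both thresholds, when a probe had to be above background on all 8 arrays, which leaves Stc2 out by construction (limma tested 9 genes, 1 of which passed the adjusted p, and 0 passed an unadjusted p together with the fold-change). It was 3 after quantile normalization, with the deposited log2 values, an intensity trend, array weights or a slide block, since Cyp27b1 or Kl then passed, and 2 to 3 when 1 rat was left out, with 1 to 1 at both thresholds. Without a filter on dim probes, the listed pathway genes called were 5, 1 of them at both thresholds, and all probes called were 1194. When 1 rat was left out, the pathway genes called were 4 to 7 (1 to 2 at both thresholds, 1 without female 1, female 2, female 4 or male 3), all probes called 1012 to 1544, and all probes at both thresholds 355 to 495.

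Same-numbered males and females deviated together only weakly (correlations of 0.0935, 0.082, 0.0193 and 0.138 for replicates 1 to 4, of which 1 and 4 correlated best with their own number), and nothing states that the numbers pair the rats. With the replicate block, 1 of the 10 genes was called (Slc20a2 had an adjusted p of 0.0504), 1 pathway gene at both thresholds (Cldn14 was at 0.0634), and 1030 probes in all.

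Signs turned for genes that were not called. After quantile normalization Slc34a1 was at 0.0230, Gnas at 0.0218, Slc20a1 at 0.0195 and Lrp2 at 0.0648, and with the deposited log2 values they were at 0.0230, 0.0274, 0.0125 and 0.0682. With normexp Slc20a1 was at 0.0175 and Lrp2 at 0.0145, with array weights Slc20a1 was at 0.0225, and over all probes Lrp2 was at 0.0075. When 1 rat was left out, Trpv5 went from -0.0090 to 0.193, Fgfr1 from -0.0129 to 0.0484, Trpv6 from -0.163 to 0.246, Slc20a1 from -0.0648 to 0.0277 and Lrp2 from -0.0737 to 0.0616. The cause of these changes was not tested. With normexp Stc2 was at -2.65 and Cldn14 at -1.15, both still called. Signal over background limits Stc2, whose male level is known only as below background.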
